A study of Caenorhabditis elegans with 45 samples.

Results

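The abundance of miRNAs in wild-type Caenorhabditis elegans was measured by small RNA sequencing of whole larvae at the mid L4 stage, late in larval development. The 3 wild-type libraries, replicates A, B and C, were chosen by their genotype label and are 3 of the 45 libraries of the series. The wild-type strain is VT1367, which carries maIs105 on chromosome V, a reporter for the adult epidermal collagen gene col-19. Larvae were hatched together without food, fed with HB101 bacteria, kept at 20 °C and collected 45 hours after feeding. The other 42 libraries came from 14 genotypes that also carry maIs105 and have 1 nucleotide of let-7 changed, and 6 of these genotypes also carry mnDp1. They are used here only to place the depth, the genes listed at 0 and the spread of the wild-type libraries, and the range of single miRNAs. Each library was made from total RNA with a ligation-based small RNA kit. The labels do not say whether the 3 wild-type replicates came from separate cultures, so their spread may be technical.

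miRNAs are short RNAs cut from hairpin precursors. Loaded into an Argonaute protein, they lower the output of mRNAs that pair with them, mainly through the seed, the bases 2 to 8 from the 5′ end. miRNAs that share a seed form a family and can act on the same targets, so the reads of a family are summed below as well as those of its members. Larval development in this worm is timed by 2 miRNA genes found by genetics, lin-4 in early stages and let-7 at the passage to adulthood, and by their relatives. The larval tissues sampled together here include epidermis, intestine, muscle, neurons and the growing germ line.

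The 3 libraries held 4259990, 3489388 and 2843202 reads in replicates A, B and C, and between 60.3% and 61.7% of them mapped. Reads assigned to miRNAs numbered 2158302 in A, 1789409 in B and 1319030 in C, which ranked these libraries 21, 37 and 43 by miRNA depth among the 45. miRNAs took 83.6% of mapped reads in A, 85.0% in B and 75.2% in C. Levels are given as CPM, the reads of a miRNA gene per 1000000 miRNA reads of its library. Counts are listed per gene, so the arms of a precursor are not told apart. CPM values are shares of reads and not molecules per cell, since ligation efficiency differs between miRNAs. In whole animals, fewer cells of a type and less of a miRNA per cell cannot be told apart.

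Of 257 miRNA genes, 136 had reads in all 3 libraries, 31 had reads in 1 or 2 of them with at most 5 reads in a library, and 90 were listed at 0 in all 3. A count of 0 allows up to 3 reads, which is 1.39 CPM in A, 1.68 CPM in B and 2.27 CPM in C. Of the 90 genes at 0, 61 were also at 0 in all 45 libraries, and none of the other 29 had more than 157 reads over the other 42 libraries together. The genes listed at 0 include muscle mir-1, mir-71, a regulator of lifespan, mir-52, mir-80, intestinal mir-60, neuronal mir-124 and lin-4, and they are taken up with the annotation at the end. The order and the shares below are those of the deposited counts, and in these the named genes take no part.

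A handful of miRNAs held most of the reads. In each library 5 miRNAs held 50% of all miRNA reads and 21 held 90%. To reach 99% took 49 miRNAs in A, 50 in B and 49 in C. The 10 highest miRNAs of each library held 67.3% in A, 64.4% in B and 66.5% in C, a mean of 66.1% ± 1.48 (SD, n = 3). The share grew to 88.8% ± 0.125 for the 20 highest, 96.5% ± 0.125 for the 30 highest and 99.1% ± 0.0353 for the 50 highest. The effective number of miRNAs, the exponential of the Shannon entropy of the shares, was 21.5 ± 0.214 (SD, n = 3), far below the 136 with reads in every library.

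**Figure D1:**
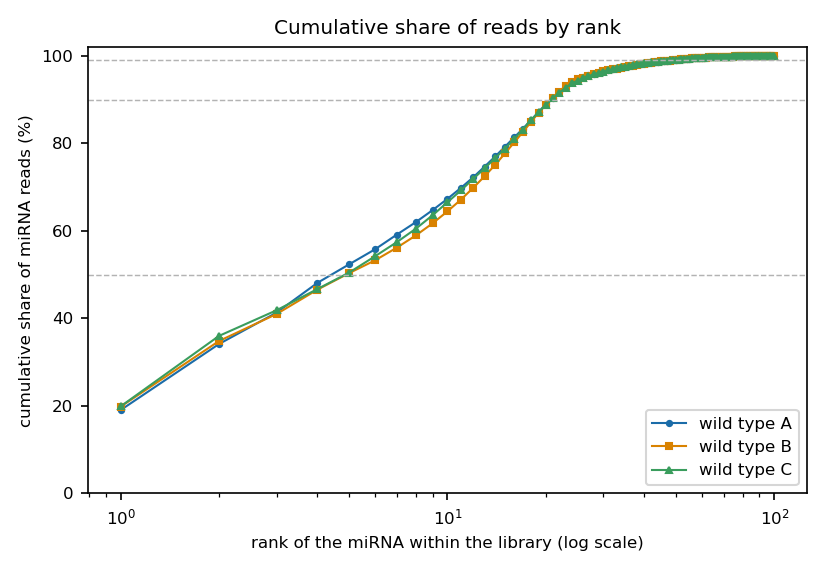
Cumulative share of miRNA reads (y axis, percent) against the rank of the miRNA within its own library (x axis, log scale), with 1 line per wild-type replicate and dashed lines at 50%, 90% and 99%. The 3 lines lie close together and pass 50% at rank 5 and 90% at rank 21.

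Levels spanned more than 5 orders of magnitude. Among the 136 miRNAs with reads in every library the highest mean was 183221 CPM and the lowest 0.846 CPM (mir-2209.2), and the median was 184.8 CPM. The highest was therefore 991.2 times the median. The miRNAs next to the median were mir-1020, mir-1822, mir-789.2, mir-83 (a relative of vertebrate miR-29) and mir-44, with means of 157.3 to 203.6 CPM. Mean levels of at least 10000 CPM were reached by 23 miRNAs, which together held 93.0% of the reads. A further 21 lay between 1000 and 10000 CPM and held 5.64%, 32 between 100 and 1000 CPM held 1.22%, and 28 between 10 and 100 CPM held 0.145%.

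mir-70 and mir-58.1 stood above all others in each library. mir-70 had 190429 CPM in A, 198194 CPM in B and 161041 CPM in C, a mean share of 18.3% ± 1.96 (SD, n = 3). mir-58.1, of the family related to the fly growth regulator bantam, had 150973, 150004 and 198854 CPM in A, B and C, a mean share of 16.7% ± 2.79. mir-70 was first in A and B and mir-58.1 first in C, and their ranges overlap, so the order of the pair is not settled by these libraries. The share of mir-70 differed between A and C by more than counting error, with 95% Wilson intervals of 19.0% to 19.1% in A and 16.0% to 16.2% in C. Among the 10 highest miRNAs no such interval reached further than 0.0681 percentage points to either side of its value. These intervals cover counting error only, because reads without molecular identifiers are not independent molecules.

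Together mir-70 and mir-58.1 held 34.1% of reads in A, 34.8% in B and 36.0% in C. mir-58.1 was highest where mir-70 was lowest, so the sum of the pair (35.0% ± 0.935) spread less than either member. In the WBcel235 annotation the precursor of mir-70 lies on chromosome V at 6665536 to 6665635 on the minus strand. It overlaps the transporter gene pmp-5 on the same strand. That of mir-58.1 lies on chromosome IV at 3233254 to 3233350 on the plus strand. It overlaps the coding gene Y67D8A.2 and an exon of a gene other than mir-58.1, both on the same strand.

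The next step down held mir-82 and lin-58. mir-82, a second member of the mir-58 family, had 71658, 55674 and 58547 CPM in A, B and C. lin-58 is the gene of miR-48, a let-7 relative that acts in larval timing, and it had 68007, 61712 and 48524 CPM. Their ranges overlap each other, whereas the lowest value of the leading pair, 150004 CPM, was 2.09 times the highest value of mir-82 and lin-58, 71658 CPM. mir-82 occupies bases 2435258 to 2435354 of chromosome X, minus strand, and overlaps the coding gene gid-2 on that strand. lin-58 occupies bases 14364412 to 14364509 of chromosome V, minus strand.

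Below lin-58 came 19 miRNAs, from mir-72 to mir-84, that held 45.9% ± 0.731 of the reads. mir-72 led them with 34289, 37704 and 37194 CPM in A, B and C. let-7 came next in the order of means with 42293, 27548 and 37587 CPM, so it was ahead of mir-72 in A and C and behind it in B. mir-51 had 33713, 29091 and 32425 CPM and was seventh in every library. The other 16 in falling order of mean were mir-228, mir-55, mir-66, mir-237, mir-81, mir-61, mir-65, mir-57, mir-238, mir-56, mir-64, mir-47, mir-73, mir-59, mir-77 and mir-84, between 27576 and 12743 CPM. Their single values ran from 30631 CPM (mir-66 in C) to 11289 CPM (mir-84 in C), and most neighbours in this run could not be ordered.

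A clear drop followed mir-84. mir-54 had 7810, 9591 and 9881 CPM, all below the lowest value of mir-84, and its own lowest value was 1.28 times the highest of any lower miRNA. The last 6 of the leading 30 were mir-35, mir-86, mir-246, mir-37, mir-241 and mir-235 (a regulator of blast cell quiescence in starved larvae), with means of 5441 to 2812 CPM. Of the 29 pairs of neighbours in the leading 30, 8 had the same order in all 3 libraries and 4 had ranges that did not overlap. These 4 are the steps below mir-58.1, lin-58, mir-84 and mir-54. The exact ranks within the run from mir-72 to mir-84 therefore carry little weight. Of the 32 miRNAs among the 30 highest of any library, 28 were so in every library, and for the 20 highest this was 17 of 22. Of the 15 miRNAs among the 10 highest of any library, only 7 were so in every library.

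**Figure D2:**
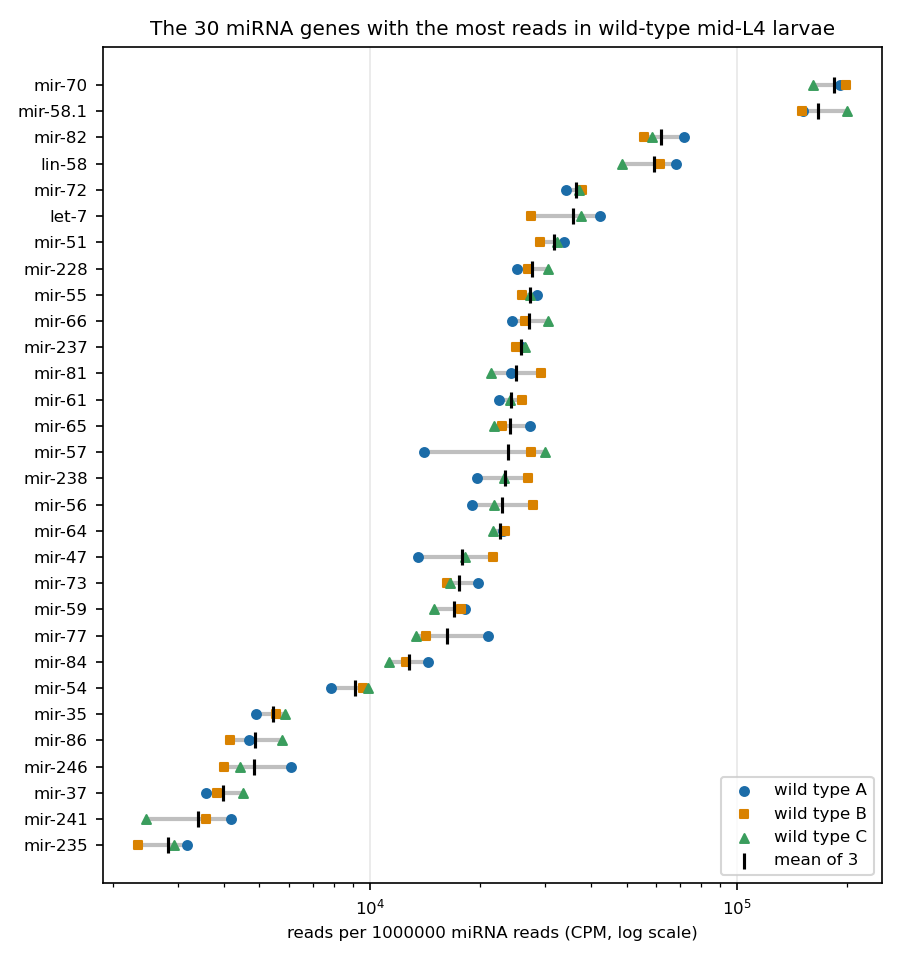
Reads per 1000000 miRNA reads (x axis, CPM, log scale) of the 30 miRNA genes with the highest mean, with 1 symbol per wild-type replicate, a grey bar from the lowest to the highest and a black tick at the mean. mir-70 and mir-58.1 lie at or above 150004 CPM in every library, and the symbols overlap between most neighbours from mir-72 to mir-84.

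The let-7 family, let-7 and its relatives, held 11.3% ± 1.55 of the reads (13.0% in A, 10.7% in B and 10.1% in C). All 7 of its listed genes had reads. lin-58 supplied 52.7% of the family. let-7 itself was second with a mean of 35809 ± 7532 CPM, and mir-84, which targets the Ras gene let-60, had 14435, 12504 and 11289 CPM. mir-241, which acts with lin-58 and mir-84 in earlier larval stages, had 4177, 3575 and 2450 CPM. lin-58, mir-84 and mir-241 were each highest in A, intermediate in B and lowest in C. let-7 instead was lowest in B.

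The remaining members of the let-7 family were far lower. mir-793 had 923, 981 and 632 CPM, mir-795 had 411, 440 and 460 CPM, and mir-794 had 133, 144 and 177 CPM in A, B and C. The highest mean in the family, that of lin-58, was 392.1 times the lowest, that of mir-794. mir-795 and mir-794, neighbours on chromosome I, were highest in C, the library in which lin-58, mir-84, mir-241 and mir-793 were lowest.

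The library table counts let-7 separately by form, with 70780 wild-type reads in A, 38505 in B and 35166 in C. Under the gene name let-7 the table of all miRNAs had 91281, 49294 and 49578 reads, so the wild-type form made up 77.5%, 78.1% and 70.9% of these. The mutant form was listed at 0 in each of the 3 libraries. Which mutant form was counted for wild type is not given in the sources used here. let-7 was thus lowest in B as a share of miRNA reads by either table. Its precursor occupies bases 14744173 to 14744271 of chromosome X, minus strand.

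Of the lin-4 family, relatives of vertebrate miR-125, only mir-237 had reads, as lin-4 was listed at 0. mir-237 had 25992, 25024 and 26489 CPM, a share of 2.58% ± 0.0745. Its CV over the replicates (SD over mean), 2.88%, was the smallest among the 76 miRNAs with a mean of at least 100 CPM. The larval timing genes let-7, lin-58, mir-84, mir-241, lin-4 and mir-237 summed to between 126338 and 154904 CPM, with 5 of 6 detected.

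The mir-58 family was the leading family with 25.4% ± 2.27 of the reads (24.7% in A, 23.5% in B and 27.9% in C). This family is known in the worm for its part in body growth and TGF-β signalling. mir-58.1 made up 65.7% of it, followed by mir-82 and by mir-81 with 24283, 29163 and 21417 CPM. mir-2209.1 had a mean of 7.76 CPM and mir-58.2 one of 2.42 CPM with 10, 2 and 2 reads, and mir-80 was listed at 0. The family sum was therefore carried by 3 of the 5 genes with reads.

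The mir-51 family, which is needed in embryos for attachment of the pharynx, held 9.30% ± 0.234 of the reads. It was shared more evenly, with mir-51 at 34.1% of the family. mir-55 had 28443, 26008 and 27211 CPM and mir-56 had 18939, 27885 and 21714 CPM, while mir-53 was lowest with 1428, 1873 and 3100 CPM. mir-56 was highest in B and mir-53 in C, but the family sum was between 9.03% and 9.44% in all 3 libraries. mir-52 was listed at 0.

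The mir-63 family was complete, with 5 of 5 genes, and held 7.81% ± 0.107 of the reads. mir-66 (24376, 26456 and 30631 CPM), mir-65 (27354, 22959 and 21730 CPM) and mir-64 (23051, 23366 and 21600 CPM) were close in level, and mir-63 and mir-229 averaged 2791 and 1425 CPM. mir-66 was highest in C and mir-65 lowest there, and the sum of the family ranged only from 7.68% to 7.88%. The mir-72 family held 5.39% ± 0.0104, from mir-72 and mir-73 (19663, 16166 and 16551 CPM), with mir-74 listed at 0. Its CV of 0.194% was below the 0.316% that counting alone gives for lin-58, which had more reads. This SD is therefore narrower than counting error. mir-73 was highest in A, where mir-72 was lowest.

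Several smaller families were carried nearly or wholly by 1 gene. mir-228, a relative of vertebrate miR-183, made up 99.5% of a family that held 2.77% ± 0.281 of the reads. mir-61, known from the Notch response in vulval precursor cells, made up 98.3% of the mir-44 family (2.46% ± 0.189), in which mir-45 was listed at 0. mir-44 and mir-45 have near-identical mature forms, so the 157.3 CPM of mir-44 is uncertain as the level of that gene alone. mir-238 made up 99.4% of its family (2.34% ± 0.374) and mir-47 all the reads of its family (1.78% ± 0.410), with mir-46 at 0. Others were divided among more genes. The leader made up 43.8% of the mir-35 family (1.24% ± 0.0438, with 7 genes detected). For the mir-2 family (0.227% ± 0.0127, with mir-43 at 0) this was 69.5%, and for the mir-86 family (0.558% ± 0.0734) 87.3%. The 6 leading families together held 61.9% ± 2.23 of the reads, and the 20 families examined, with 70 genes in the table, 73.6% ± 1.86. mir-70, the highest miRNA, belongs to none of these 20.

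**Figure D3:**
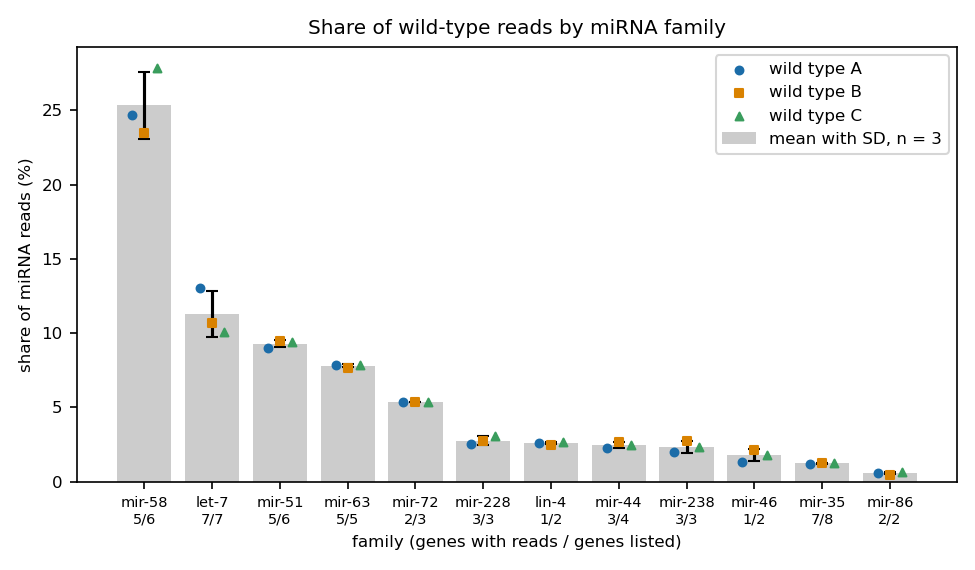
Share of miRNA reads (y axis, percent) of the 12 families with the highest mean, as bars at the mean of the 3 wild-type libraries with error bars of 1 SD and 1 symbol per replicate. The numbers under each name are the genes with reads and the genes listed, and the mir-58 family lies above the others in every library at 23.5% or more.

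Embryonic and tissue miRNAs were read from lists of markers. The mir-35 to mir-42 genes, which act in embryos and are made in the germ line, summed to between 11993 and 12867 CPM, with 7 of 8 having reads and mir-42 at 0. mir-35 (4896, 5544 and 5882 CPM) and mir-37 (3578, 3826 and 4513 CPM) led them and were highest in C. In contrast mir-39 (1888, 1558 and 1378 CPM), mir-40 (787, 697 and 532 CPM), mir-36 (649, 633 and 469 CPM) and mir-41 (120, 33.5 and 27.3 CPM) were lowest in C. mir-35 to mir-41 lie in 1 cluster on chromosome II at 11537608 to 11538404 on the plus strand, while mir-42 lies apart in a cluster with mir-43 and mir-44. The sum over the list was 1.20%, 1.24% and 1.29% in A, B and C. The level of mir-41 in B and C rests on 60 and 36 reads, against 260 in A.

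lsy-6, which acts in a single left-right pair of taste neurons and is made in the left one, had 25.9, 46.9 and 40.9 CPM from 56, 84 and 54 reads and was rank 96 of the means. mir-57, which acts in posterior cells, had 14054, 27519 and 29918 CPM, so A lay well below B and C. The muscle marker mir-1, the intestinal marker mir-60 and the sensory neuron marker mir-124 were all listed at 0, and the presence of these tissues could not be checked by them. Of these lists, only those of the single neuron, the posterior cells and the germ line gave reads.

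The genome places the reads unevenly. Genes of chromosome X, 73 of the 257 listed, held 27.4% ± 0.930 of the reads, a share near that of its genes. Of these genes 55 had reads, and 10 are among the leading 30 miRNAs. Chromosome V, with 27 genes, held 27.2% ± 2.99, led by mir-70. Chromosome IV, with 49 genes, held 25.1% ± 3.001, led by mir-58.1. Chromosome III, with 27 genes led by mir-66, held 10.5% ± 0.312. Chromosome II, with 48 genes led by mir-72, held 9.08% ± 0.658. The 33 genes of chromosome I held 0.613% ± 0.0315, led by mir-235 at rank 30, and mir-1 and mir-71, which are listed at 0, are on that chromosome. The precursors of 74 of the 257 genes overlap a coding gene on the same strand, and these genes held 49.7% ± 0.958 of the reads. mir-70 and mir-58.1 are among them and alone held 35.0% ± 0.935. Of the leading 30, 7 are such genes, a part no larger than among all genes. Besides mir-70, mir-58.1 and mir-82 these are mir-64, mir-65 and mir-66 with gcn-1 and mir-86 with Y56A3A.7.

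Precursors within 10000 bases of each other on 1 strand formed 28 clusters with 79 genes, and they held 35.1% ± 0.734 of the reads. Members of a cluster can come from 1 transcript, yet their mature levels differed widely. In the 20 clusters with at least 2 detected members, the ratio of the highest to the lowest mean ran from 1.56 to 315.5 with a median of 15.1. mir-229, mir-64, mir-65 and mir-66 on chromosome III held 7.53% ± 0.113, with mir-66 at 19.1 times mir-229. lin-58 and mir-241 on chromosome V held 6.28% ± 1.08, with lin-58 at 17.5 times mir-241. mir-56, mir-55 and mir-54 on chromosome X held 5.92% ± 0.416 and lay within 2.99 times of each other. mir-359 and mir-785 had the smallest ratio, 1.56, and mir-228 and mir-790 the highest, 315.5.

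miRNAs with high gene numbers contributed little. The 121 genes numbered 1000 or above include 71 with reads in at least 1 library, and they held 0.405% ± 0.109 of the reads. The highest of them was mir-2214 at rank 40. The longest annotated mature form of each gene with reads was 20 to 26 nucleotides long, with a median of 23. For the leading 30 it was 22 to 25. Dividing counts by this length left mir-70 at 18.3% of the total.

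The replicates differed by more than counting error. Among the 104 miRNAs with a mean of at least 10 CPM the median CV was 16.1%, with quartiles of 11.2% and 23.3% and a range of 1.58% (mir-232, with 87, 74 and 53 reads) to 90.7% (mir-2214). The variance over replicates was above the counting variance for 98 of the 104, by a median factor of 26.1, and 91 of the 104 stayed within 2-fold over the 3 libraries. The median CV was 45.8% for means of 1 to 10 CPM, where counting alone gives 41.0%, and 21.9% for 10 to 100 CPM, where counting gives 10.9%. It was 16.8% for 100 to 1000 CPM, 15.8% for 1000 to 10000 CPM and 12.3% above 10000 CPM, where counting gives 4.61%, 1.82% and 0.488%. Below 10 CPM the spread was thus close to that of counting, and above 1000 CPM it was several times wider.

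Across the 136 miRNAs with reads in every library, Pearson's r of log2 CPM was 0.987 for B with A, 0.985 for C with A and 0.991 for C with B. miRNAs are not independent replicates, and the wide range of levels sets these values. The SD of the log2 ratio over the 104 miRNAs was 0.48 for B over A, 0.61 for C over A and 0.42 for C over B. No library was a copy of another, since the chi-square of their counts was 198.3 to 323.5 per degree of freedom. The common biological CV from edgeR was 23.7% in wild type, against 18.2% to 77.9% with a median of 26.0% in the other 14 genotypes. Wild type was the seventh lowest of 15 by this measure and the third lowest by the median CV, which was 12.7% to 62.0% in the others.

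Single miRNAs departed from this spread in both directions. mir-2214 had 434, 745 and 2494 CPM in A, B and C, from 937, 1334 and 3290 reads, so C was 5.75 times A. mir-247 (131, 316 and 318 CPM), mir-53 and mir-57 were lowest in A. mir-359 (1627, 756 and 945 CPM) was highest in A, as were its cluster neighbour mir-785 (933, 672 and 525 CPM), mir-77 (20998, 14244 and 13389 CPM), mir-789.2 (230, 129 and 187 CPM) and mir-241. mir-788 (1041, 1603 and 1783 CPM) was lowest in A. The CV of these 10 lay between 25.7% and 90.7%.

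The 5 steadiest miRNAs of at least 100 CPM were mir-237, mir-239.1, mir-64, mir-248 and mir-55, with a CV of 2.88% to 4.47%. mir-239.1 had 115.4, 116.2 and 109.2 CPM from 249, 208 and 144 reads, and its CV of 3.39% was below the 7.23% that counting alone gives. For mir-64, mir-248 and mir-55 counting gives 0.512%, 1.82% and 0.467%. Of the leading 30, 13 were highest in A and 11 lowest in A, 8 highest and 10 lowest in B, and 9 highest and 9 lowest in C. Replicate A was thus more often at an end of the range than B or C, and it was the highest or the lowest for each of the 10 least steady miRNAs. The log2 ratios between B and C also spread less than those of either with A. By the median CV at 10 CPM or more it was otherwise. This was lowest without C, at 11.0%, against 12.6% without A and 15.5% without B.

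**Figure D4:**
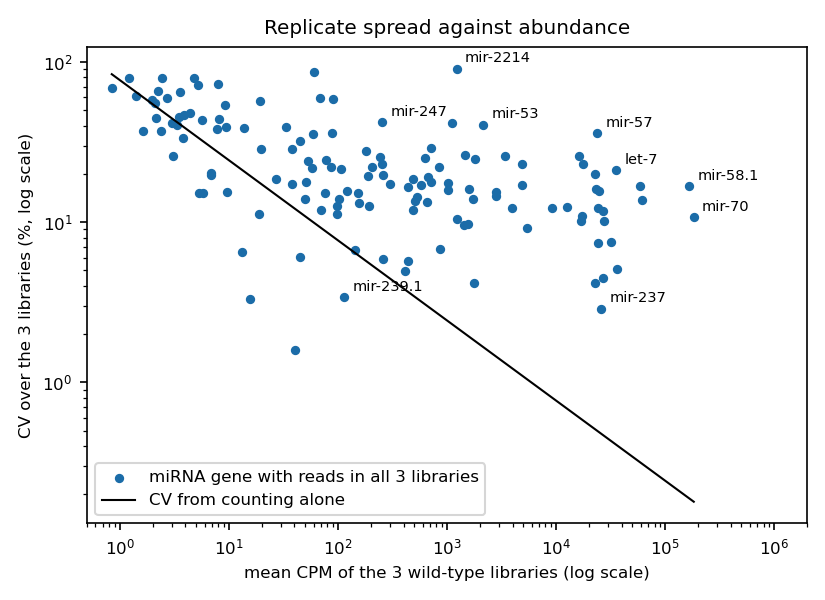
CV over the 3 wild-type libraries (y axis, percent, log scale) against the mean level (x axis, CPM, log scale) for the 136 miRNA genes with reads in all 3, with a line for the CV that counting alone gives. Points lie near the line below 10 CPM and above it at high levels, where mir-2214 reaches 90.7% and mir-237 lies at 2.88%.

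Genes listed at 0 were set against the annotation. In WBcel235 the precursors of 42 of the 257 genes overlap an exon of another gene on the opposite strand, and 35 of these 42 (83.3%) were listed at 0. Of the 215 genes with no such exon, 55 (25.6%) were at 0. Among the 75 genes of the family and marker lists, 17 were at 0 and all 17 have such an exon, whereas 2 of the 58 with reads do, mir-55 and mir-57. The 17 are lin-4, mir-1, mir-42, mir-43, mir-45, mir-46, mir-50, mir-52, mir-60, mir-74, mir-79, mir-80, mir-87, mir-90, mir-124, mir-252 and mir-786. mir-71, outside these lists, also has such an exon. For 28 genes the overlapping exon belongs to a non-coding RNA gene, and 25 of these were at 0.

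The reads were assigned to genes with featureCounts, per the submitters' processing notes, and its strand setting and annotation are not given in the sources used here. The part of the overlap in the counts of 0 was not tested. Exons opposite to the precursor do not always go with a 0: mir-55 averaged 27221 CPM and mir-57 23830 CPM. mir-242, mir-67, mir-262, mir-260 and mir-356.2 also had reads. For mir-57, mir-242 and mir-67 opposite exons do not cover every annotated mature form, and for mir-55 the exon belongs to another miRNA gene. Genes at 0 have these traits too. Opposite exons do not cover every mature form of mir-124, mir-42 and mir-74, and the exon opposite mir-786 belongs to another miRNA gene. mir-262 had 3, 6 and 8 reads in A, B and C, mir-260 had 4, 3 and 6, and mir-356.2 had 1 read, in C. Opposite exons cover every mature form in 30 genes, and 26 of these 30 were at 0. Not every 0 has an opposite exon either. Of the genes at 0, 39 are numbered below 1000 and 26 of these have one, against 9 of the other 51. Absence of these miRNAs from the larva was not tested. The shares of the mir-58, mir-51, mir-72, lin-4, mir-44, mir-46, mir-35 and mir-2 families, each with 1 gene at 0, carry this limit. So do those of the mir-240, mir-87, mir-75 and mir-251 families, each with 1 gene at 0, and of the mir-50 family with 2. Any reads missing from genes at 0 would also be missing from the total, so every other share and rank carries it as well.

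**Figure D5:**
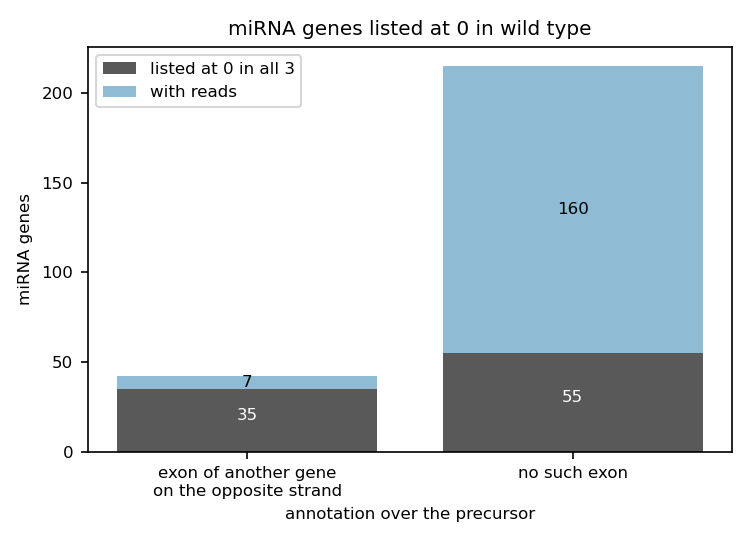
Number of miRNA genes (y axis) listed at 0 in all 3 wild-type libraries or with reads, for genes whose precursor overlaps an exon of another gene on the opposite strand and genes without one. Of the 42 genes with such an exon 35 were at 0, and of the 215 without one 55 were at 0.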

How the data were processed

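Small RNA of 3 wild-type libraries was analysed, out of 45 in the series. The authors deposited raw read counts per miRNA gene and a table of read counts per library, including let-7 reads by form. The submitters' processing notes name cutadapt 1.9, Bowtie2 2.3.4.3, Subread 1.6.2 and featureCounts; genome build, annotation and settings are not given in the sources used here. The RPM columns, a score computed by the authors from the counts per the file headers, and their log2 columns were not used.

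Counts were divided by the column sum to give CPM. Means, SD, CV and shares were computed with Python 3.11.15, numpy 2.4.6 and pandas 2.3.3, Wilson 95% intervals from counts, and common biological CV with edgeR 4.0.16 in R 4.3.3, checked on simulated data. With 1 group there is no contrast, so no test was made. Counting error of a CPM value falls with depth, and 1 read is 0.463, 0.559 and 0.758 CPM in A, B and C. Precursor positions, mature lengths and host genes come from the WBcel235 annotation, Ensembl release 115, matched by gene ID for 257 of 257 genes.

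Families and markers were listed from background knowledge, and shared seeds were not checked, as no mature sequences were used here. Members and lists were chosen with earlier results of these data known. Named miRNAs are the 30 with the highest mean, all listed family members and markers, the 10 with the largest and 5 with the smallest CV at 100 CPM or more, the 5 nearest the median, and the leaders of clusters and chromosomes. mir-71, mir-2209.2, mir-2214 as the highest gene numbered 1000 or above, and the genes with an exon on the opposite strand were named after their values were seen. Alternatives were another let-7 count, counts per mature length, summed counts, the highest miRNA left out, other scalings and minimums, each library left out, and genes with an opposite exon left out.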

Additional observations from a re-analysis of the deposited data

How the results depend on the processing

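For 13 results 93 alternative values were computed, 39 of them by leaving out a library. Of the other 54, 38 moved by less than 1 SD, or by less than 1.5 times for counts. This SD was between replicates for shares and between pairs of libraries for the median CV. Scaling cannot change the number of miRNAs with reads in every library. Leaving out 1 library cannot move a mean share by 1 SD, so the leave-outs are given below as ranges only. Leaving the highest miRNA out of the counts gave 20.4% for the new highest, mir-58.1, and 61.7% for the 10 highest. The family shares then became 31.01% for mir-58, 13.8% for let-7, 11.4% for mir-51, 9.56% for mir-63, 6.60% for mir-72 and 3.39% for mir-228, by construction of the smaller total. The mir-72 family moved to 5.43% with the let-7 count of the library table and to 5.31% per mature length. These moves were judged against its SD of 0.0104, which is narrower than counting error. Leaving out genes with an exon on the opposite strand, an alternative chosen after seeing the data, gave 69.4% for the 10 highest, 6.94% for the mir-51 family without mir-55, 8.23% for mir-63 and 5.68% for mir-72. The median CV with no minimum was 18.9%, and 17 of the 20 highest were shared by all libraries in place of 28 of 30.

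Leaving out each library in turn gave 17.6% to 19.4% for mir-70, 65.5% to 66.9% for the 10 highest and 21 miRNAs for 90% of reads each time. Families ranged from 24.1% to 26.3% (mir-58), 10.4% to 11.9% (let-7), 9.23% to 9.44% (mir-51), 7.77% to 7.87% (mir-63), 5.38% to 5.39% (mir-72) and 2.62% to 2.90% (mir-228). The number at 1 CPM or more was 132 to 133, the number with reads in every library 139 and the shared leading miRNAs 28 to 29. The median CV was 11.0% to 15.5%, with its lowest value without C. Over fewer libraries these numbers can only be equal or higher, and a median CV tends to come out lower. Their side of the main value thus carries no weight. At the depth of the shallowest library 134.1 miRNAs with reads and 126.2 at 1 CPM or more would be expected, against 136 and 130. No paired analysis was possible because the wild type is 1 group with no comparison. Depth limits miRNAs below about 10 CPM.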

Other observations

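The wild-type values of some of the least and the most steady miRNAs were set beside the other 42 libraries, as a description. mir-2214 had 2494 CPM in wild-type replicate C, against 86.2 to 2223 CPM with a median of 512.2 CPM in the other libraries, so none of the 42 was higher. mir-57 had 14054 CPM in wild-type replicate A, against 5040 to 36203 CPM in the others, of which 2 were lower. The 5 steadiest of at least 100 CPM lay at different places in the range of the others. mir-237 had 25024 to 26489 CPM in wild type and 14284 to 31373 CPM in the others, of which 3 were above and 31 below all wild-type values. mir-55 had 26008 to 28443 CPM in wild type, with 14 of the others above and 23 below. mir-64 had 21600 to 23366 CPM in wild type, with 29 above and 7 below, mir-248 had 1701 to 1843 CPM, with 23 above and 15 below, and mir-239.1 had 109.2 to 116.2 CPM, with 24 above and 11 below. These differences from wild type were not tested.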
